A study of Homo sapiens with 30 samples.

Results

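The collagen genes of Rh30 cells were taken from 3 tables of RNA-sequencing counts. Every gene whose symbol is COL, a type number, A and a chain number was a member, which gave 43 genes, all in all 3 tables, of 23290 symbols listed. The 29 members with at least 10 counts in 1 or more columns are described here. The other 14 reached at most 8.53 counts anywhere. They are COL4A3, COL4A4, COL4A6, COL5A3, COL6A2, COL6A3, COL6A5, COL8A1, COL10A1, COL11A1, COL17A1, COL20A1, COL23A1 and COL28A1. By structure the 29 comprise 9 of 11 fibrillar chains, 3 of 6 basement membrane network chains, 1 of 3 short-chain network chains, 2 of 5 beaded filament chains, the anchoring fibril chain, 9 of 10 fibril-associated chains, 2 of 4 transmembrane chains and both multiplexins.

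Rh30 is an established human line of alveolar rhabdomyosarcoma, a childhood tumour with features of skeletal muscle precursors, and carries the fusion transcription factor PAX3-FOXO1. In the tagged cells an FKBP degradation domain was joined to PAX3-FOXO1 or to FOXO1, so that the compound dTAG sends the tagged protein to the proteasome. A PAX3-FOXO1-FKBP line and a FOXO1-FKBP line were given DMSO or 500 nM dTAG for 2, 6, 24 or 72 h. The other libraries came from the PAX3-FOXO1-FKBP clones 4, 10, 11 and 12 and from parental Rh30 without the tag, each labelled as DMSO-treated, with 2 libraries per group. Each clone is 1 isolate of edited cells, so a difference between a clone and parental cells includes whatever else set that isolate apart, and the tag and the isolate cannot be told apart. Which clone, if any of the 4, was used for the PAX3-FOXO1-FKBP time course is not stated.

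Collagens are matrix proteins whose chains wind into a triple helix. Fibrillar types build the banded fibrils of tendon, skin, bone and cartilage, fibril-associated types coat those fibrils, and type IV forms the sheet-like network of basement membranes, which surrounds every skeletal muscle fibre. Chains are hydroxylated and folded in the endoplasmic reticulum, exported, trimmed by propeptidases and cross-linked by lysyl oxidases. In skeletal muscle most fibrillar collagen is made by connective tissue fibroblasts, while muscle cells themselves also make basement membrane chains.

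Library totals were 17746684 to 26834005 counts in the clone table and 25863451 to 30466960 estimated counts in the time-course columns, each of which pools the 2 samples of a condition. Of 8 myogenic markers, 7 had at least 10 counts in every column, and the markers of muscle that the label implies were thus present. Of 9 fibroblast markers, LUM, a proteoglycan, stayed at or below 3.004 CPM in all columns, but others were higher. THY1 reached 70.3 CPM in clone 10, and in the PAX3-FOXO1-FKBP line PDGFRB reached 24.5 CPM and PDGFRA 21.6 CPM. PAX3 reads, to which the fusion mRNA contributes, did not pass the test between any clone and parental cells (edgeR adjusted p = 0.321, 0.512, 0.234 and 0.282 for clones 4, 10, 11 and 12). FOXO1 reads, which the fusion and FOXO1 itself share, had log2 changes of -0.58, -0.81, -1.06 and -1.30 in clones 4, 10, 11 and 12 (edgeR adjusted p = 0.0584, 0.0134, 0.0034 and 0.00115). In the PAX3-FOXO1-FKBP line PAX3 stood at 26.8 CPM under DMSO, then 16.6, 13.7, 16.95 and 13.7 CPM after 2, 6, 24 and 72 h with dTAG. FOXO1 reads there did not fall alongside, at 128 CPM under DMSO, then 115, 140, 185 and 157 CPM. The level of the fusion mRNA itself was not measured apart. The tag acts on protein, which was not measured here. Whether the paired libraries of a group stem from different cultures is not labelled. The p-values therefore reflect only how far these libraries scatter, which may be technical. That scatter differed between groups. As chi-square per gene between the 2 libraries it was 1.83 in parental cells and 49.6, 19.7, 29.2 and 13.6 in clones 4, 10, 11 and 12. The fit shares 1 estimate of the spread per gene over all groups, so a standard error does not show the scatter of its own group alone. CPM is the usual depth-scaled count, here after TMM scaling, and levels between genes are compared only as CPM per kb of transcript.

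Collagen mRNA made up 0.6805 and 0.414% for clone 4, 0.6402 and 0.582% for clone 10, 0.268 and 0.326% for clone 11 and 0.274 and 0.295% for clone 12, against 0.319 and 0.3103% for parental cells, as a share of all counts. Per kb, COL4A2, a chain of the ubiquitous type IV network, was the highest collagen in all 10 of these libraries. It reached 266 and 192 CPM per kb for clone 4, 198 and 198 CPM per kb for clone 10, 173 and 237 CPM per kb for clone 11 and 117 and 149 CPM per kb for clone 12, against 115 and 111 CPM per kb for parental cells. The cartilage collagen COL2A1 came second in every library of clones 4 and 12 and of parental cells. In clone 10 COL3A1 was second, at 173 and 179 CPM per kb. In clone 11 COL4A1, the partner of COL4A2, was second, at 64.2 and 83.7 CPM per kb. The type IV chains together held 56.3 and 57.6% of collagen mRNA per kb in clone 11, against 38.9 and 38.6% in parental cells. Fibrillar chains held 55.2 and 52.7% in clone 10, against 39.7 and 40.1% in parental cells.

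The clones were set against parental cells to ask whether cells with the tag differ before any dTAG. Of the 29 chains, 27 passed the filter on low counts, and the 2 others, COL6A6 and COL22A1, stayed at or below 1.505 CPM. In clone 4, 9 chains were higher and 5 lower, 14 of 27, where 47.4% of all 14175 genes tested were called (25.1% higher, 22.3% lower). In clone 10, 14 were higher and 3 lower, where 52% of all genes were called (27.8% higher, 24.2% lower). In clone 11, 4 were higher and 10 lower, where 51.6% were called (26.5% higher, 25.1% lower). In clone 12, 6 were higher and 5 lower, where 52.6% were called (27.8% higher, 24.7% lower). A call needed an edgeR adjusted p under 0.05. The median collagen log2 change was 0.32, 0.58, -0.29 and 0.18 in clones 4, 10, 11 and 12, beside 0.048, 0.053, -0.0048 and 0.029 over all genes tested. These collagen counts are to be read against those shares of all genes, of which 47.4 to 52.6% were called in a clone.

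Transcript composition moved with these differences. Over 13534 genes the log2 change rose with GC content. Spearman's rho was 0.46, 0.51, 0.59 and 0.53 for clones 4, 10, 11 and 12 against parental cells. The median GC content of the 27 collagen transcripts was 59%, against 49% over all genes. With transcript length, rho was -0.11, -0.032, -0.38 and -0.32 for those clones. The difference between the 2 libraries of a group correlated with length at 0.58, 0.39, 0.25 and 0.052 in clones 4, 10, 11 and 12. In parental cells that rho was 0.056. The described collagens had a median length of 6425 nt, against 3419 nt over all genes. In a fit corrected for GC content and length, 10 chains were higher and 6 lower in clone 4 and 9 and 7 in clone 10. In clone 11 they were 5 and 12, and in clone 12 they were 8 and 7. Of all genes in that fit, 27, 25.1, 24.6 and 26.3% were higher in clones 4, 10, 11 and 12. The shares lower were 19.6, 21.8, 17.6 and 20.8%. The split of clone 10 thus depends on that correction. Of the 56 calls, 37 passed under every alternative run for them. Those lost under 1 or more were COL9A1 and COL21A1 in clone 4, COL2A1, COL4A1, COL4A2, COL8A2, COL15A1, COL18A1 and COL25A1 in clone 10, COL2A1, COL4A2, COL11A2, COL14A1 and COL25A1 in clone 11, and COL5A1, COL7A1, COL8A2, COL12A1 and COL19A1 in clone 12. Clone 10 had 11 calls with either 1 of the parental libraries left out, and clone 12 had 7 without parental replicate 2 or without 1 of its own libraries. The clones share the parental libraries, so their calls are not independent of each other.

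The 4 clones differed among themselves in 25 of the 27 chains, where 63.5% of all genes were called by the same edgeR test of the difference among clones. The exceptions were COL1A2 and COL4A5. Of the 27 chains, 9 were called higher in 1 or more clones and lower in another, 11 were called only higher and 5 only lower. COL1A2 and COL9A2 were called in no clone against parental cells. The fit corrected for GC content and length also made calls that this one did not. Among them COL9A2 was lower in clone 10, at -0.71 (edgeR adjusted p = 0.0237). COL6A1 was lower in clone 11, at -0.59 (edgeR adjusted p = 0.00357), and COL27A1 in clone 12, at -0.77 (edgeR adjusted p = 0.00863).

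**Figure D1:**
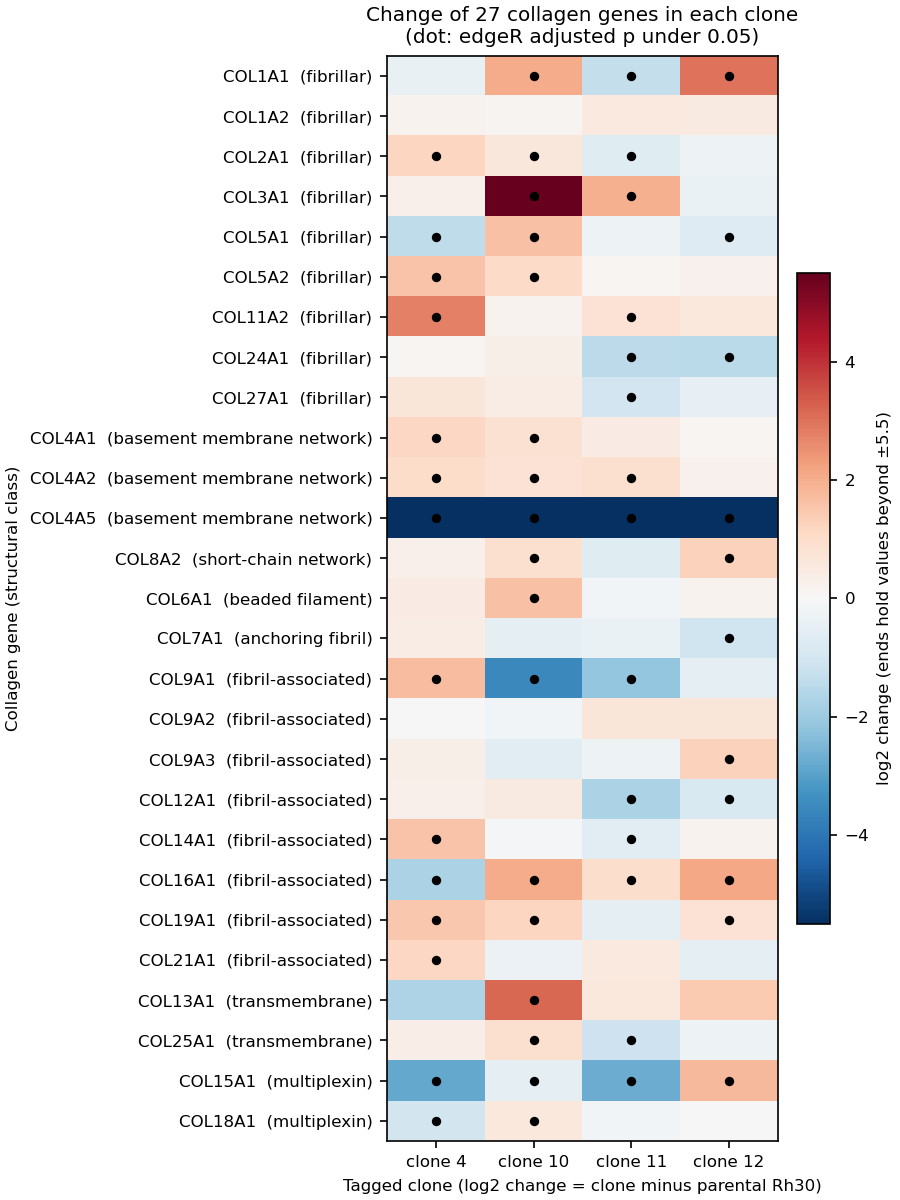
Log2 change of 27 collagen genes (rows, by structural class) in clones 4, 10, 11 and 12 (columns), each minus parental Rh30, with a dot where the edgeR adjusted p was under 0.05. COL3A1 stands out as higher in clone 10 (log2 5.49), COL4A5 is lower in all 4 clones, and COL1A1, COL15A1 and COL16A1 change sign between clones.

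Type I and III collagen, the main fibril formers of soft tissue, differed widely between clones. COL3A1 had 36.9 and 15.4 CPM for clone 4, 958 and 993 for clone 10, 77.7 and 89.3 for clone 11 and 16.8 and 16.96 for clone 12, against 21.4 and 21.95 CPM for parental cells. Both libraries of clone 10 lay far above every other library and both of clone 11 lay above all of those left, while clones 4 and 12 lay near parental cells. It changed on the log2 scale by 5.49 ± 0.33 (edgeR adjusted p = 4.17e-06) in clone 10, a 45.03-fold difference, and 1.95 ± 0.29 (edgeR adjusted p = 0.000418) in clone 11. COL1A1, the main chain of type I collagen, had 10.98 and 9.59 CPM for clone 4, 55.9 and 55.9 for clone 10, 4.73 and 6.43 for clone 11 and 123 and 92.6 for clone 12, against 14.2 and 13.1 CPM for parental cells. Clones 12 and 10 were above parental cells and clone 11 below, with no overlap. Fitted against parental cells, the log2 change was 2.98 ± 0.19 (edgeR adjusted p = 8.37e-06) in clone 12, 2.04 ± 0.18 (edgeR adjusted p = 3.17e-05) in clone 10 and -1.30 ± 0.20 (edgeR adjusted p = 0.000441) in clone 11. In clone 4 it was -0.40 ± 0.19 (edgeR adjusted p = 0.0965), and with correction for GC content and length -0.84, called lower (edgeR adjusted p = 0.00107). The clones with the most COL1A1 and the most COL3A1 were thus different ones. COL3A1 per COL1A1, as CPM per kb, was 4.08 and 1.95 for clone 4, 20.8 and 21.6 for clone 10, 19.9 and 16.9 for clone 11 and 0.166 and 0.222 for clone 12, against 1.83 and 2.04 for parental cells. COL1A2, the second chain of type I collagen, stayed between 0.716 and 1.53 CPM in all 10 libraries, and COL1A1 per COL1A2, as CPM per kb, was 78.8 and 56.96 in clone 12, against 13.7 and 10.8 in parental cells.

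Type V collagen sits inside type I fibrils and sets their diameter. COL5A1 had 104 and 55.1 CPM for clone 4, 738 and 559 for clone 10, 163 and 184 for clone 11 and 144 and 117 for clone 12, against 219 and 207 CPM for parental cells. Clone 10 was the highest and clone 4 the lowest. On the log2 scale the change was 1.61 ± 0.25 (edgeR adjusted p = 0.000523) in clone 10, -1.42 ± 0.25 (edgeR adjusted p = 0.00123) in clone 4 and -0.70 ± 0.25 (edgeR adjusted p = 0.0337) in clone 12, of which the last was lost in 4 of 15 alternatives, each with 1 library left out (adjusted p up to 0.149). COL5A2, its partner chain, had 1301 and 666 CPM for clone 4, 726 and 640.01 for clone 10, 350.2 and 370.3 for clone 11 and 428 and 356 for clone 12, against 329 and 332 CPM for parental cells. All libraries of clones 4, 10, 11 and 12 were above both parental ones, those of clones 11 and 12 by less, and those of clone 4 were far apart. The log2 change was 1.57 ± 0.25 (edgeR adjusted p = 0.00062) in clone 4 and 1.05 ± 0.24 (edgeR adjusted p = 0.00469) in clone 10. Clones 11 and 12 were called only with correction for GC content and length, at 0.40 and 0.38 (edgeR adjusted p = 0.0425 and 0.0491). The chains of type V did not move together, since COL5A1 per COL5A2 was 0.0671 and 0.0692 for clone 4, 0.8497 and 0.731 for clone 10, 0.3896 and 0.415 for clone 11 and 0.281 and 0.275 for clone 12, against 0.555 and 0.521 for parental cells, per kb.

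**Figure D2:**
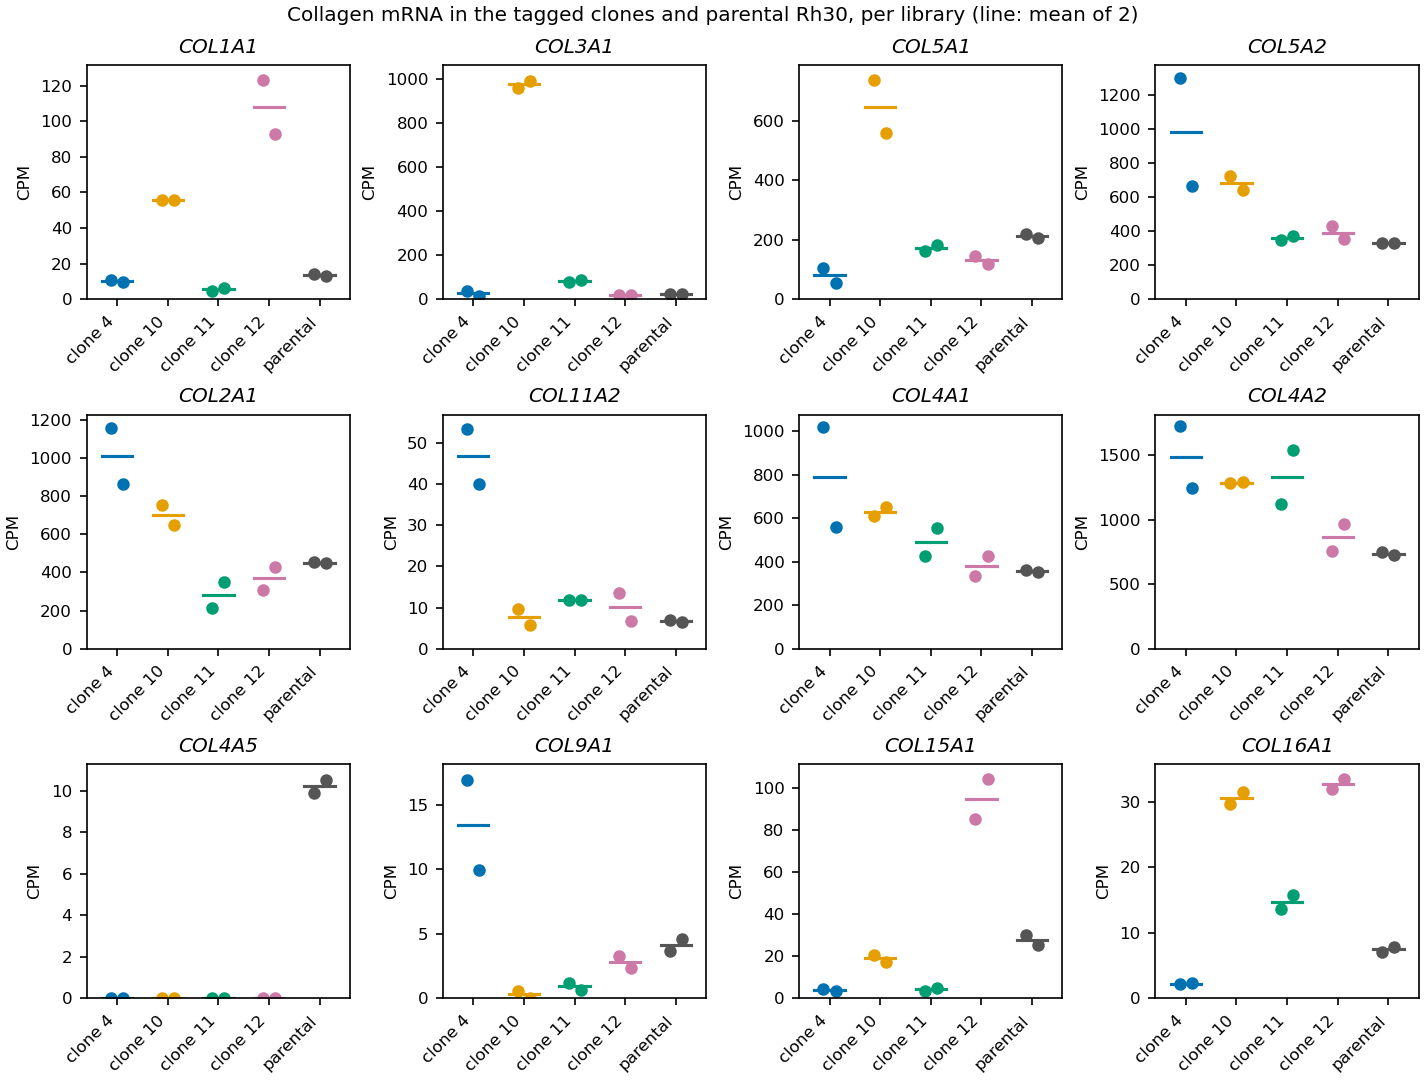
CPM of 12 collagen genes in each library (points) of clones 4, 10, 11 and 12 and of parental Rh30, with the mean of 2 libraries as a line, on linear axes from 0. COL3A1 reaches 958 and 993 CPM in clone 10 alone, COL1A1 is highest in clone 12, and COL4A5 is at 0 in all 8 clone libraries.

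Chains of cartilage fibrils were also measured. COL2A1 had 1155 and 863 CPM for clone 4, 752 and 649 for clone 10, 212 and 350.3 for clone 11 and 307 and 429 for clone 12, against 452 and 447 CPM for parental cells. Clone 4 was highest and lay above parental cells in both libraries. It changed on the log2 scale by 1.17 ± 0.24 (edgeR adjusted p = 0.00259) in clone 4, 0.64 ± 0.24 (edgeR adjusted p = 0.0409) in clone 10 and -0.68 ± 0.24 (edgeR adjusted p = 0.0327) in clone 11. The value of clone 10 was -0.022 after correction for GC content and length. COL11A2, a type XI chain found inside type II fibrils, had 53.4 and 40.1 CPM for clone 4, 9.69 and 5.74 for clone 10, 11.9 and 11.9 for clone 11 and 13.5 and 6.78 for clone 12, against 7.01 and 6.53 CPM for parental cells. Only clone 4 stood far apart, at a log2 change of 2.79 ± 0.31 (edgeR adjusted p = 0.000107). In clone 11 it was 0.81 ± 0.31 (edgeR adjusted p = 0.0464), a call that was lost in 7 of 16 alternatives, among them those without either parental or either clone 11 library. COL24A1, a minor fibrillar chain, had 12.5 and 5.52 CPM for clone 4, 10.8 and 10.2 for clone 10, 3.03 and 3.03 for clone 11 and 3.48 and 2.47 for clone 12, against 8.45 and 8.22 CPM for parental cells. It was lower in clones 11 and 12, at -1.46 ± 0.33 (edgeR adjusted p = 0.00406) and -1.49 ± 0.34 (edgeR adjusted p = 0.00373). COL27A1, a chain made in developing cartilage, had 67.96 and 39.3 CPM for clone 4, 43.3 and 46.6 for clone 10, 16.4 and 16.4 for clone 11 and 30.4 and 19.5 for clone 12, against 36.2 and 32.1 CPM for parental cells. It was lower in clone 11, at -1.06 ± 0.26 (edgeR adjusted p = 0.00569). SOX9, the transcription factor that drives cartilage collagen genes, had 108 and 75.2 CPM for clone 4, 92.3 and 82.8 CPM for clone 10, 33.6 and 36.1 CPM for clone 11 and 91.8 and 125 CPM for clone 12, against 191 and 193 CPM for parental cells. Of the other 5 cartilage markers, ACAN, COMP and HAPLN1 stayed at or below 0.313 CPM in these libraries, MATN1 lay between 0.268 and 1.86 CPM and MATN3 between 0.0415 and 0.887 CPM. MATN3 was called higher in clone 10, at 2.19 (edgeR adjusted p = 0.00445), and MATN1 lower in clone 4, at -1.50 (edgeR adjusted p = 0.02199).

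In the basement membrane class the genes lie in head-to-head pairs, 2 genes that start close together and run apart. COL4A2 and COL4A1 start 127 bases apart on chromosome 13, COL4A3 and COL4A4 start 419 bases apart on chromosome 2, and COL4A5 starts 380 or 1416 bases from the listed starts of COL4A6 on the X chromosome (RefSeq, GRCh38.p14). RefSeq promoter windows, from 250 bases before to 50 after a start, were at hand for 31 of the 43 members and 20 of the 29 described. The windows of COL4A2, which also holds the start of COL4A1, of COL4A5 and of COL27A1 are shown because these genes had the plainest loss or fall in the results. They lie at chr13:110307034-110307333, chrX:108439588-108439887 and chr9:114155287-114155586, all on the plus strand. Capitals mark matches on either strand to GGGCGG (the GC box of Sp1-type factors), CCAAT (the CCAAT box), CAGCTG (an E-box of myogenic factors) and GTCACGC (a motif of the PAX paired domain).
COL4A2: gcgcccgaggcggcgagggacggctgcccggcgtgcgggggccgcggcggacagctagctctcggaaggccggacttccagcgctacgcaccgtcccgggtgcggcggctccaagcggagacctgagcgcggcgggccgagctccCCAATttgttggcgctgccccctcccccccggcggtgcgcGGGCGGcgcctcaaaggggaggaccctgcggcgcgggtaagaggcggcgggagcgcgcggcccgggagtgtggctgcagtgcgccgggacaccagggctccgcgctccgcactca
COL4A5: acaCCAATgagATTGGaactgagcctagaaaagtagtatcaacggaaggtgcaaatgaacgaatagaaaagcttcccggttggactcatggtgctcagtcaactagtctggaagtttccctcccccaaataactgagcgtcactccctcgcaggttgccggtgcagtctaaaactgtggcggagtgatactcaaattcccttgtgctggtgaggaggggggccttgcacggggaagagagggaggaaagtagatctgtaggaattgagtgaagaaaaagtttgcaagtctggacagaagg
COL27A1: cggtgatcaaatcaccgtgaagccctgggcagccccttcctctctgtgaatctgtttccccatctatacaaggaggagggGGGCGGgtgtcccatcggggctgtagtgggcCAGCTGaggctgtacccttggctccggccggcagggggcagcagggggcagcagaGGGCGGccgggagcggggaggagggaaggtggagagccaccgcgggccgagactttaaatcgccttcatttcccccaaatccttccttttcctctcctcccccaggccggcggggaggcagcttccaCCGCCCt
The COL4A2 window holds 1 GGGCGG and 1 CCAAT, the COL4A5 window holds 2 CCAAT and no GGGCGG, and the COL27A1 window holds 3 GGGCGG and 1 CAGCTG. No match to GTCACGC was found in the 3 windows. Of all 35116 windows, 45% hold GGGCGG, 34.6% CCAAT, 17.9% CAGCTG and 2.52% GTCACGC. No 2 of the marked matches overlap, and a match describes letters in the window and not a binding site.

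COL4A5, which forms the basement membrane of the kidney glomerulus with COL4A3 and COL4A4, was at 0 in every tagged clone. It had 0 counts in all 8 libraries of clones 4, 10, 11 and 12, against 261 and 313 counts in the parental libraries. Against a floor of 3 counts per library it was at least 65.7-fold lower in clone 4, 72.2-fold in clone 10, 66-fold in clone 11 and 64.6-fold in clone 12, and edgeR called it lower in each (adjusted p = 6.05e-05, 5.07e-05, 9.49e-05 and 6.12e-05). Such bounds cover counting error only. In the time course COL4A5 had at most 0.419 estimated counts per column with tagged PAX3-FOXO1 and 0 with tagged FOXO1, under DMSO and dTAG alike. Parental cells were thus the 1 group with more than 1 count of this mRNA. Its neighbour COL4A6 had 0 counts for clones 4, 11 and 12 and 4 and 7 for clone 10, against 6 and 5 counts in parental cells. At this depth a change of COL4A6 was not detectable.

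COL4A1 and COL4A2, which form the common type IV network together, were higher in several clones. COL4A2 had 1726 and 1245 CPM for clone 4, 1285 and 1287 for clone 10, 1123 and 1541 for clone 11 and 759 and 969 for clone 12, against 746 and 722 CPM for parental cells. All libraries of clones 4, 10, 11 and 12 lay above both parental ones, those of clone 12 by little. Fitted against parental cells, the log2 change was 1.017 ± 0.20 (edgeR adjusted p = 0.00185) in clone 4, 0.81 ± 0.19 (edgeR adjusted p = 0.00553) in clone 10 and 0.86 ± 0.20 (edgeR adjusted p = 0.00394) in clone 11. COL4A1 had 1019 and 561 CPM for clone 4, 608 and 649 for clone 10, 425 and 554 for clone 11 and 333 and 425 for clone 12, against 362 and 351 CPM for parental cells. Clones 4, 10 and 11 lay above parental cells, and clone 12 overlapped them. It was called in clone 4, at 1.15 ± 0.24 (edgeR adjusted p = 0.00309), and in clone 10, at 0.82 ± 0.24 (edgeR adjusted p = 0.0154). With correction for GC content and length, clone 10 had 0.10 for COL4A2 and 0.26 for COL4A1, and neither was called (edgeR adjusted p = 0.581 and 0.255). COL4A1 per COL4A2, as CPM per kb, stayed between 0.353 and 0.58 in all columns of the 3 tables.

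Among multiplexins, which lie in basement membrane zones, COL15A1 had 4.51 and 3.27 CPM for clone 4, 20.5 and 17.4 for clone 10, 3.36 and 5.07 for clone 11 and 85.4 and 104 for clone 12, against 30.2 and 25.3 CPM for parental cells. Clone 12 lay above parental cells and the other clones below, each without overlap with parental cells, while clones 4 and 11 overlapped each other. On the log2 scale the change was 1.77 ± 0.21 (edgeR adjusted p = 0.000115) in clone 12, -2.83 ± 0.23 (edgeR adjusted p = 2.51e-05) in clone 4, -2.74 ± 0.23 (edgeR adjusted p = 6.56e-05) in clone 11 and -0.55 ± 0.21 (edgeR adjusted p = 0.0419) in clone 10, of which the last was lost without either library of either group. COL18A1, the source of endostatin, had 53.5 and 59.2 CPM for clone 4, 162 and 177 for clone 10, 76.5 and 130.1 for clone 11 and 106 and 126 for clone 12, against 113 and 113 CPM for parental cells. It was lower in clone 4, at -1.01 ± 0.21 (edgeR adjusted p = 0.00282), and higher in clone 10, at 0.58 ± 0.21 (edgeR adjusted p = 0.0338), where the corrected value was -0.14. Clones 11 and 12 had libraries on both sides of parental cells.

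Fibril-associated chains bridge fibrils to other matrix. COL16A1 had 2.21 and 2.25 CPM for clone 4, 29.6 and 31.4 for clone 10, 13.6 and 15.8 for clone 11 and 31.9 and 33.4 for clone 12, against 7.05 and 7.85 CPM for parental cells. Clones 10, 11 and 12 were above parental cells and clone 4 below, with no overlap. The log2 change was 2.13 ± 0.15 (edgeR adjusted p = 1.67e-05) in clone 12, 2.03 ± 0.15 (edgeR adjusted p = 1.11e-05) in clone 10, 0.98 ± 0.15 (edgeR adjusted p = 0.000532) in clone 11 and -1.74 ± 0.18 (edgeR adjusted p = 6.52e-05) in clone 4. COL9A1, a type IX chain that coats type II fibrils, had 16.95 and 9.97 CPM for clone 4, 0.5897 and 0.0522 for clone 10, 1.203 and 0.618 for clone 11 and 3.31 and 2.37 for clone 12, against 3.64 and 4.58 CPM for parental cells. It was higher in clone 4, at 1.71 ± 0.41 (edgeR adjusted p = 0.00565), and lower in clones 10 and 11, at -3.56 ± 0.57 (edgeR adjusted p = 0.00059) and -2.11 ± 0.49 (edgeR adjusted p = 0.00452). Its partners were less variable. COL9A2 had 5.37 and 5.63 CPM for clone 4, 5.01 and 4.59 for clone 10, 5.97 and 11.2 for clone 11 and 8.04 and 9.21 for clone 12, against 4.81 and 5.96 CPM for parental cells. COL9A3 had 1.76 and 1.88 CPM for clone 4, 0.885 and 0.991 for clone 10, 1.08 and 1.36 for clone 11 and 3.48 and 3.49 for clone 12, against 1.55 and 1.35 CPM for parental cells, and was higher in clone 12, at 1.26 ± 0.27 (edgeR adjusted p = 0.00292).

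COL12A1 and COL14A1 are fibril-associated chains of tendon and muscle connective tissue. COL12A1 had 363 and 170.4 CPM for clone 4, 317 and 300.3 for clone 10, 58.7 and 71.6 for clone 11 and 128 and 120.4 for clone 12, against 221 and 218 CPM for parental cells. It was lower in clone 11, at -1.75 ± 0.27 (edgeR adjusted p = 0.000489), and in clone 12, at -0.82 ± 0.26 (edgeR adjusted p = 0.0222), and the call of clone 12 was lost in 4 of 15 alternatives. COL14A1 had 656 and 471 CPM for clone 4, 185 and 170.03 for clone 10, 122 and 136 for clone 11 and 229.5 and 209.5 for clone 12, against 195 and 188 CPM for parental cells. Clone 4 stood above all other groups, at 1.56 ± 0.16 (edgeR adjusted p = 6.73e-05), and clone 11 below, at -0.58 ± 0.16 (edgeR adjusted p = 0.0111). The call of clone 11 was lost in 2 of 16 alternatives, and COL14A1 was at -0.24 there after correction for GC content and length (edgeR adjusted p = 0.0649). COL19A1, a chain originally cloned from rhabdomyosarcoma cDNA, had 29.99 and 22.2 CPM for clone 4, 19.8 and 23.001 for clone 10, 6.51 and 6.67 for clone 11 and 18.5 and 13.9 for clone 12, against 9.59 and 8.99 CPM for parental cells. It was higher in clones 4, 10 and 12, at 1.49 ± 0.20 (edgeR adjusted p = 0.00026), 1.20 ± 0.20 (edgeR adjusted p = 0.00068) and 0.80 ± 0.20 (edgeR adjusted p = 0.00636). COL21A1 had 4.97 and 6.38 CPM for clone 4, 2.02 and 2.09 for clone 10, 3.61 and 3.89 for clone 11 and 1.597 and 1.89 for clone 12, against 2.96 and 2.19 CPM for parental cells, and was higher in clone 4, at 1.14 ± 0.25 (edgeR adjusted p = 0.00369).

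The remaining chains were at low to middling levels. COL6A1, a type VI chain that needs COL6A2 and COL6A3 to assemble, had 78.04 and 61.3 CPM for clone 4, 157 and 157 for clone 10, 37.8 and 55.7 for clone 11 and 63.2 and 53.1 for clone 12, against 52.4 and 49.9 CPM for parental cells. It was higher in clone 10, at 1.62 ± 0.19 (edgeR adjusted p = 0.000115). COL6A2 was at 0 and COL6A3 at or below 0.104 CPM in these libraries. COL13A1, a transmembrane chain of the neuromuscular junction, had 0.1003 and 0 CPM for clone 4, 2.02 and 1.1996 for clone 10, 0.373 and 0.124 for clone 11 and 0.456 and 0.533 for clone 12, against 0.152 and 0.202 CPM for parental cells, and was higher in clone 10, at 3.15 ± 0.57 (edgeR adjusted p = 0.001105). The transmembrane chain COL25A1 had 29.99 and 13.6 CPM for clone 4, 35.8 and 27.8 for clone 10, 7.22 and 8.22 for clone 11 and 15.5 and 12.8 for clone 12, against 17.2 and 17.1 CPM for parental cells. It was higher in clone 10, at 0.89 ± 0.29 (edgeR adjusted p = 0.0237), and lower in clone 11, at -1.16 ± 0.31 (edgeR adjusted p = 0.00869). COL7A1, the anchoring fibril chain of skin, had 8.83 and 4.55 CPM for clone 4, 4.55 and 2.504 for clone 10, 5.02 and 2.66 for clone 11 and 2.11 and 2.57 for clone 12, against 4.44 and 5.62 CPM for parental cells, and was lower in clone 12, at -1.10 ± 0.41 (edgeR adjusted p = 0.0411). COL8A2, a network chain of the cornea, had 2.21 and 2.304 CPM for clone 4, 3.71 and 3.23 for clone 10, 1.24 and 1.11 for clone 11 and 5.53 and 3.49 for clone 12, against 1.74 and 1.99 CPM for parental cells. It was higher in clone 12, at 1.26 ± 0.28 (edgeR adjusted p = 0.00337), and in clone 10, at 0.89 ± 0.28 (edgeR adjusted p = 0.01998). The calls of COL7A1 in clone 12, of COL25A1 in both clones and of COL8A2 in both clones were each lost in 1 or more alternatives.

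Markers of other cell types moved with some of these chains. The summed level of 9 fibroblast markers was 39.02 and 42.7 CPM for clone 4, 83.4 and 96.2 CPM for clone 10, 6.64 and 6.12 CPM for clone 11 and 72.04 and 64.7 CPM for clone 12, against 18.8 and 19.2 CPM for parental cells, and 2 to 4 of the 9 had at least 10 counts in a library. THY1, a surface protein of fibroblasts and other cells, had 25.1 and 34.7 CPM for clone 4, 50.3 and 70.3 CPM for clone 10, 0 and 0 CPM for clone 11 and 57.3 and 51.4 CPM for clone 12, against 0.0379 and 0.202 CPM for parental cells, so it was most of the sum in clones 4, 10 and 12 and little or none of it in clone 11 and parental cells. Of the other 8, DCN, POSTN, TCF21, PDPN and FAP stayed at or below 0.626 CPM in these libraries. PDGFRB had 6.57 and 5.304 CPM for clone 4, 22.7 and 17.99 CPM for clone 10, 1.70 and 3.58 CPM for clone 11 and 10.1 and 7.66 CPM for clone 12, against 4.17 and 4.31 CPM for parental cells. PDGFRA was at 14.1 and 14.2 CPM in parental cells and at 2.04 to 9.69 CPM in the clones, and LUM at 1.77 and 3.004 CPM in clone 12, against 0.227 and 0.168 CPM in parental cells. Of 4 tested fibroblast markers, 1 was higher and 2 lower for clone 4, 2 and 0 for clone 10, 0 and 1 for clone 11, and 3 and 1 for clone 12. Summed cartilage markers were 109 and 76.03 CPM for clone 4, 94.3 and 85.7 CPM for clone 10, 34.9 and 38.0 CPM for clone 11 and 92.98 and 126 CPM for clone 12, against 193 and 195 CPM for parental cells. Summed myogenic markers were 5330.5 and 6398 CPM for clone 4, 5676 and 5922 CPM for clone 10, 4900.1 and 5391 CPM for clone 11 and 5295 and 4752 CPM for clone 12, against 2689.7 and 2688 CPM for parental cells, so every clone library lay above both parental ones, and of 7 tested myogenic markers edgeR called 7 higher in clone 4, 6 in clone 10, 6 in clone 11 and 6 in clone 12, where 25.1, 27.8, 26.5 and 27.8% of all genes were called higher. With correction for GC content and length 7, 5, 3 and 4 were called higher in those clones, beside 27, 25.1, 24.6 and 26.3% of all genes. Summed epithelial markers were 122 and 155 CPM for clone 4, 54.5 and 56.1 CPM for clone 10, 4.85 and 7.48 CPM for clone 11 and 4.62 and 6.69 CPM for clone 12, against 6.22 and 6.5 CPM for parental cells. Most of the sum was keratin, KRT8 at 64.4 and 78.4 CPM and KRT18 at 54.2 and 69.4 CPM in clone 4. In clone 10 KRT18 had 38.6 and 41.7 CPM. EPCAM had 3.66 and 6.05 CPM for clone 4 and 5.35 and 4.80 CPM for clone 10, against 3.90 and 4.28 CPM for parental cells. CDH1 and KRT19 stayed at or below 0.1072 CPM and CLDN4 at or below 3.08 CPM in these libraries. The other lists lay, over these 10 libraries, at 1.01 to 5.91 CPM for Schwann cell, 4.6 to 13.7 CPM for endothelial, 2.39 to 17.3 CPM for B lineage and 75.4 to 279.5 CPM for pan-leukocyte markers. The part of these genes in the collagen differences was not tested. In bulk RNA, fewer cells of a kind and less RNA per cell cannot be told apart.

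The proteins that make and handle collagen were followed in 5 lists, and the called genes of lowest p, at most 4 per clone, are named with their log2 change. Of 17 tested genes of collagen modification and folding, 10 were higher and 2 lower for clone 4, 9 and 2 for clone 10, 8 and 3 for clone 11, and 8 and 2 for clone 12. Among all genes tested 47.4, 52, 51.6 and 52.6% were called in these clones, with 25.1, 27.8, 26.5 and 27.8% higher, and the counts of all 5 lists are to be read against these shares. Clone 4 had LEPREL1 at 1.12, LEPREL2 at 1.10, SERPINH1 at 1.18 and LEPRE1 at 0.70 (edgeR adjusted p of at most 0.00217 each). Among those of clone 10 were PLOD1 at 1.19, LEPRE1 at 1.10, SERPINH1 at 1.21 and GLT25D2 at 2.90 (edgeR adjusted p of at most 0.00131 each). For clone 11 they were PLOD2 at -1.93, P4HA1 at -0.98, SERPINH1 at 1.004 and PPIB at 0.94 (edgeR adjusted p of at most 0.00425 each), and for clone 12 P4HA1 at -0.91, PLOD2 at -1.04, LEPREL2 at 0.77 and GLT25D1 at 0.55 (edgeR adjusted p of at most 0.00259 each). SERPINH1 is the collagen chaperone HSP47, LEPRE1, LEPREL1 and LEPREL2 are prolyl 3-hydroxylases or their relatives, PLOD1 and PLOD2 are lysyl hydroxylases, GLT25D1 and GLT25D2 add galactose to hydroxylysine, P4HA1 is a subunit of prolyl 4-hydroxylase and PPIB is a proline isomerase. These counts depended on the correction for GC content and length. With it the list had 6 higher and 0 lower for clone 4, 6 and 0 for clone 10, 3 and 5 for clone 11 and 4 and 2 for clone 12. Of all genes, 27, 25.1, 24.6 and 26.3% were then higher and 19.6, 21.8, 17.6 and 20.8% lower in these clones. The corrected counts of all 5 lists are to be read against these shares. PLOD2 was then at -1.16 in clone 11, where it was still called, and at -0.26 in clone 12, where it was not. PPIB in clone 11, at 0.26, and LEPREL2 and GLT25D1 in clone 12, at 0.25 and 0.19, were not called either.

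Of 16 tested genes of export, propeptide cleavage and cross-linking, 3 were higher and 3 lower for clone 4, 8 and 2 for clone 10, 2 and 3 for clone 11, and 4 and 6 for clone 12. These are 6, 10, 5 and 10 genes of 16, where 47.4 to 52.6% of all genes were called in a clone. Clone 4 had LOXL2 at 1.25, ADAMTS14 at -1.09, PCOLCE at -0.97 and KLHL12 at 0.58 (edgeR adjusted p of at most 0.00279 each). Among those of clone 10 were LOXL1 at 1.12, LOXL2 at 1.37, BMP1 at 0.99 and LOX at 1.55 (edgeR adjusted p of at most 0.00179 each). For clone 11 they were SEC23A at -1.29, ADAMTS3 at -1.59, CTAGE5 at -0.81 and PCOLCE at 0.85 (edgeR adjusted p of at most 0.00224 each), and for clone 12 LOXL4 at -1.24, PCOLCE2 at 0.73, TLL2 at -0.87 and MIA3 at -0.53 (edgeR adjusted p of at most 0.0102 each). LOX, LOXL1, LOXL2 and LOXL4 are lysyl oxidases, ADAMTS3, ADAMTS14 and BMP1 cleave propeptides, and TLL2 is a protease of the tolloid family. PCOLCE and PCOLCE2 enhance propeptide cleavage, and SEC23A, KLHL12, CTAGE5 and MIA3 serve the export of collagen from the endoplasmic reticulum. With the correction this list had 7 higher and 3 lower for clone 4, 9 and 1 for clone 10, 1 and 5 for clone 11, and 4 and 4 for clone 12. CTAGE5 and PCOLCE in clone 11, at -0.013 and 0.096, and MIA3 in clone 12, at 0.13, were then not called, and MIA3 had changed sign.

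Of 7 fibril-associated proteoglycans and glycoproteins tested, 2 were higher and 2 lower for clone 4, 5 and 0 for clone 10, 3 and 2 for clone 11, and 4 and 2 for clone 12, where 47.4 to 52.6% of all genes were called in a clone. Clone 4 had FMOD at 1.32, BGN at -1.57, FN1 at 1.14 and LUM at -2.67 (edgeR adjusted p of at most 0.0493 each). Among those of clone 10 were BGN at 5.08, FMOD at 2.24, FN1 at 2.09 and SPARC at 0.69 (edgeR adjusted p of at most 0.000924 each). For clone 11 they were THBS1 at -2.20, FMOD at 1.37, THBS2 at 1.73 and FN1 at 1.59 (edgeR adjusted p of at most 0.00223 each), and for clone 12 FMOD at 1.63, LUM at 3.57, SPARC at 0.66 and FN1 at -1.14 (edgeR adjusted p of at most 0.0128 each). FMOD (fibromodulin), LUM (lumican) and BGN (biglycan) are small leucine-rich proteoglycans, FN1 is fibronectin, SPARC binds collagen, and THBS1 and THBS2 are thrombospondins. BGN had 0.702 and 0.697 CPM for clone 4, 61.9 and 79.2 CPM for clone 10, 0.498 and 1.24 CPM for clone 11 and 0.5704 and 1.41 CPM for clone 12, against 2.01 and 2.15 CPM for parental cells. It stood far above all other groups in clone 10, as COL3A1 did. With the correction 3 were higher and 1 lower for clone 4, 5 and 1 for clone 10, 3 and 2 for clone 11, and 4 and 2 for clone 12. FMOD remained called in the 4 clones, at 1.12, 1.92, 1.19 and 1.40, and LUM in clone 4, at -1.93, was not called.

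Of 10 collagen receptors, 3 were higher and 1 lower for clone 4, 5 and 0 for clone 10, 2 and 1 for clone 11, and 6 and 2 for clone 12. These 4, 5, 3 and 8 receptors of 10 stand beside 47.4, 52, 51.6 and 52.6% of all genes called in those clones. Clone 4 had MRC2 at 1.77, DDR1 at 0.69, DDR2 at 1.12 and LAIR1 at -1.55 (edgeR adjusted p of at most 0.0198 each). Among those of clone 10 were ITGA11 at 6.99, MRC2 at 1.65, ITGA1 at 1.33 and DDR2 at 1.13 (edgeR adjusted p of at most 0.01302 each). For clone 11 they were ITGB1 at -1.47, MRC2 at 1.04 and ITGA2 at 1.10 (edgeR adjusted p of at most 0.03802 each), and for clone 12 MRC2 at 1.84, ITGA2 at 2.80, DDR1 at 0.68 and ITGB1 at -0.68 (edgeR adjusted p of at most 0.00244 each). ITGA1, ITGA2, ITGA11 and ITGB1 are subunits of collagen-binding integrins, DDR1 and DDR2 are receptor kinases for collagen, LAIR1 is an inhibitory receptor of leukocytes, and MRC2 takes up collagen for degradation. ITGA11 had 0.351 and 0.161 CPM for clone 4, 23.8 and 27.6 CPM for clone 10, 0.373 and 0.556 CPM for clone 11 and 0.627 and 0.678 CPM for clone 12, against 0.1895 and 0.202 CPM for parental cells, again with clone 10 far above the rest. With the correction 5 receptors were higher and 1 lower for clone 4, 5 and 1 for clone 10, 3 and 2 for clone 11, and 6 and 2 for clone 12, and ITGB1 in clone 12, at -0.071, was not called. Of 8 collagen-degrading proteases and their inhibitors, 2 were higher and 1 lower for clone 4, 5 and 1 for clone 10, 3 and 1 for clone 11, and 3 and 2 for clone 12. Clone 4 had MMP14 at 1.17, TIMP3 at -1.65 and TIMP2 at 0.59 (edgeR adjusted p of at most 0.00295 each). Among those of clone 10 were MMP14 at 1.68, TIMP2 at 0.96, MMP2 at 1.14 and TIMP3 at 0.82 (edgeR adjusted p of at most 0.00522 each). For clone 11 they were TIMP1 at 0.95, MMP14 at 0.55, MMP16 at -1.83 and MMP2 at 0.47 (edgeR adjusted p of at most 0.0376 each), and for clone 12 MMP2 at 1.35, TIMP2 at 0.63, CTSK at -2.30 and MMP16 at -1.36 (edgeR adjusted p of at most 0.02495 each). MMP2, MMP14 and MMP16 are matrix metalloproteinases, CTSK is cathepsin K, and TIMP1, TIMP2 and TIMP3 are inhibitors of metalloproteinases. With the correction 3 were higher and 1 lower for clone 4, 6 and 1 for clone 10, 0 and 1 for clone 11, and 2 and 1 for clone 12. None of the 4 named for clone 11 was then called, with TIMP1 at 0.28, MMP14 at 0.17, MMP16 at -0.79 and MMP2 at 0.19, and neither was MMP16 in clone 12, at -0.33.

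The time course asked what happened to collagen mRNA when the fusion was degraded. In the PAX3-FOXO1-FKBP line 6 of 22 tested chains changed with time of dTAG. COL1A1, COL11A2 and COL16A1 rose, and COL27A1, COL4A1 and COL4A2 fell. By the same test 4.57% of 12331 genes changed (2.4% rose, 2.17% fell). The test is an edgeR slope on log2 of hours plus 1, the p-value rests on how closely 5 pooled columns follow a line, with no replicate error in it, and a call needed an adjusted p under 0.05. In the FOXO1-FKBP line, which was given the same compound, 0 of 25 chains had a trend by edgeR, as did 0 of 11982 genes. At an unadjusted p under 0.05 there were 5 chains and 576 genes, and DESeq2 called 0 chains and 1 gene.

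By size, no chain was at least 2-fold from DMSO at 2 h in the PAX3-FOXO1-FKBP line, where 0.641% of genes were (0.365% higher, 0.276% lower). At 6 h there were again 0 chains, beside 1.82% of genes (0.608% higher, 1.22% lower), and COL27A1 lay just under the threshold at a log2 change of -0.996. At 24 h COL11A2 was at least 2-fold higher and COL27A1 at least 2-fold lower, beside 3.1% of genes (1.38% higher, 1.72% lower). At 72 h the 3 chains that rose and the 3 that fell were past 2-fold, beside 6.45% of genes (3.41% higher, 3.03% lower). With tagged FOXO1, 0 of 25 chains were past 2-fold at 2, 6, 24 or 72 h. The shares of genes higher there were 0.0334, 0.0334, 0.108 and 0.0501%, those lower 0.0417, 0.025, 0.1 and 0.392%, and together 0.0751, 0.0584, 0.209 and 0.442%. The largest log2 change of any tested chain there was 0.86 in size, that of COL9A3 at 72 h.

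Among the 22 chains tested in the PAX3-FOXO1-FKBP line, COL27A1 had the lowest log2 change at 72 h. It had 43.996 CPM under DMSO, then 32.98, 22.02, 14.1 and 10.04 CPM after 2, 6, 24 and 72 h with dTAG in the PAX3-FOXO1-FKBP line, lower at each time than at the one before. Its log2 changes were -0.42, -0.996, -1.64 and -2.12, and the slope was -0.354 ± 0.0245 per unit of log2 of hours plus 1 (edgeR adjusted p = 0.00136). In the FOXO1-FKBP line it had 12.3 CPM under DMSO, then 14.1, 10.5, 15.98 and 9.49 CPM after 2, 6, 24 and 72 h with dTAG, with no steady direction. The slope in the PAX3-FOXO1-FKBP line minus that in the FOXO1-FKBP line was -0.33 ± 0.061 (edgeR adjusted p = 0.0226). Without the 72 h columns COL27A1 was the 1 collagen that kept its trend call in the PAX3-FOXO1-FKBP line.

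Both chains of the common type IV network fell. COL4A2 had 779 CPM under DMSO, then 674, 630.4, 493 and 317 CPM after 2, 6, 24 and 72 h with dTAG in the PAX3-FOXO1-FKBP line, and 667 CPM under DMSO, then 653, 599, 839 and 567 CPM after 2, 6, 24 and 72 h with dTAG in the FOXO1-FKBP line. In the PAX3-FOXO1-FKBP line each column was below the one before, and in the FOXO1-FKBP line the 24 h column was the highest. The log2 changes were -0.21, -0.30, -0.66 and -1.30 in the PAX3-FOXO1-FKBP line (edgeR adjusted p of the trend = 0.0137). COL4A1 had 376 CPM under DMSO, then 339, 302, 196 and 161 CPM after 2, 6, 24 and 72 h with dTAG in the PAX3-FOXO1-FKBP line, and 364 CPM under DMSO, then 354, 314, 416 and 259 CPM after 2, 6, 24 and 72 h with dTAG in the FOXO1-FKBP line. Its log2 changes in the PAX3-FOXO1-FKBP line were -0.15, -0.32, -0.94 and -1.23 (edgeR adjusted p of the trend = 0.00716). The difference in slope between the lines was -0.20 ± 0.054 for COL4A2 and -0.17 ± 0.053 for COL4A1, and neither passed the test (edgeR adjusted p = 0.109 and 0.161). The fall of the pair is thus shown within the PAX3-FOXO1-FKBP line and not as a difference from the FOXO1-FKBP line. The same 2 chains were above parental cells in clones 4 and 10, where the calls of clone 10 were lost after the correction given above.

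**Figure D3:**
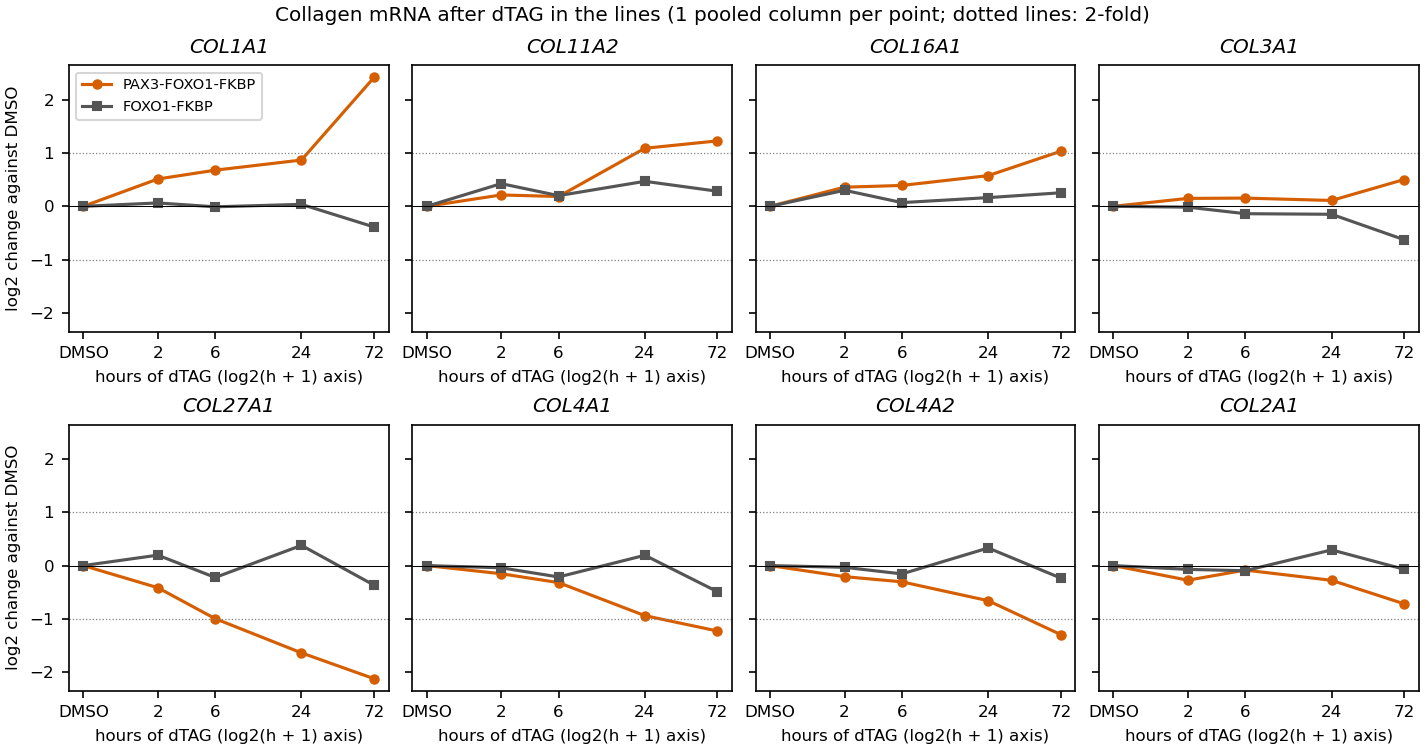
Log2 change against DMSO of 8 collagen genes at 2, 6, 24 and 72 h of dTAG (log2 of hours plus 1 on the x axis) in the PAX3-FOXO1-FKBP line (circles) and the FOXO1-FKBP line (squares), 1 pooled column per point, with dotted lines at 2-fold. COL1A1 reaches 2.42 and COL27A1 -2.12 at 72 h in the PAX3-FOXO1-FKBP line, while the FOXO1-FKBP line stays within 2-fold throughout.

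Of the chains that rose, COL1A1 had the highest log2 change at 72 h. It had 9.91 CPM under DMSO, then 14.2, 15.9, 18.1 and 53.3 CPM after 2, 6, 24 and 72 h with dTAG in the PAX3-FOXO1-FKBP line, so most of the gain lay between 24 and 72 h. With tagged FOXO1 it had 9.87 CPM under DMSO, then 10.3, 9.81, 10.1 and 7.52 CPM after 2, 6, 24 and 72 h with dTAG. The log2 changes in the PAX3-FOXO1-FKBP line were 0.51, 0.68, 0.87 and 2.42, with a slope of 0.359 ± 0.0579 (edgeR adjusted p = 0.0156), and the slope was 0.41 ± 0.079 above that of the FOXO1-FKBP line (edgeR adjusted p = 0.0266). COL11A2 had 5.24 CPM under DMSO, then 6.09, 5.97, 11.2 and 12.4 CPM after 2, 6, 24 and 72 h with dTAG in the PAX3-FOXO1-FKBP line, and 5.72 CPM under DMSO, then 7.71, 6.59, 7.95 and 6.98 CPM after 2, 6, 24 and 72 h with dTAG in the FOXO1-FKBP line. The step lay between 6 and 24 h, and the trend passed (edgeR adjusted p = 0.0218). COL16A1 had 12.8 CPM under DMSO, then 16.4, 16.8, 19.1 and 26.2 CPM after 2, 6, 24 and 72 h with dTAG in the PAX3-FOXO1-FKBP line, and 28.04 CPM under DMSO, then 34.6, 29.4, 31.4 and 33.5 CPM after 2, 6, 24 and 72 h with dTAG in the FOXO1-FKBP line. Its trend in the PAX3-FOXO1-FKBP line passed (edgeR adjusted p = 0.0237). The differences in slope between the lines were 0.18 ± 0.056 for COL11A2 and 0.13 ± 0.036 for COL16A1, which did not pass (edgeR adjusted p = 0.161 and 0.121). Without the 72 h columns none of COL1A1, COL11A2, COL16A1, COL4A1 and COL4A2 kept a trend call.

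The difference in trend between the lines passed for 2 of 21 chains, COL1A1 and COL27A1, where 2.1% of 11766 genes passed. Its p-values again rest on pooled columns, and the tables of the lines were scaled separately. Neither chain passed without the 2 h columns or without the 6 h columns of both lines (0 chains in each), and COL27A1 alone passed when 72 h was left out. Leaving out 24 h gave 6 chains, COL3A1, COL4A1, COL4A2 and COL12A1 beside COL1A1 and COL27A1. Of 11766 genes, 59, 147, 635 and 48 passed without the 2, 6, 24 and 72 h columns. The FOXO1-FKBP column of 24 h also decided the count of trends in that line, which was 9 chains and 1455 genes without it. Those 9 were COL3A1, COL4A1, COL5A2, COL9A3, COL12A1, COL14A1, COL15A1, COL19A1 and COL25A1, and at 72 h all but COL9A3 were below DMSO.

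COL3A1 had 623 CPM under DMSO, then 691, 693, 672 and 883 CPM after 2, 6, 24 and 72 h with dTAG in the PAX3-FOXO1-FKBP line, and 157 CPM under DMSO, then 155, 143, 142 and 102 CPM after 2, 6, 24 and 72 h with dTAG in the FOXO1-FKBP line. The log2 changes were 0.15, 0.15, 0.11 and 0.50 in the PAX3-FOXO1-FKBP line and -0.016, -0.14, -0.15 and -0.63 in the FOXO1-FKBP line, and neither trend nor their difference passed (edgeR adjusted p = 0.247, 0.843 and 0.0815). COL2A1 had 266 CPM under DMSO, then 219.7, 251, 219 and 161 CPM after 2, 6, 24 and 72 h with dTAG in the PAX3-FOXO1-FKBP line, and 525 CPM under DMSO, then 499.6, 491, 644 and 500.3 CPM after 2, 6, 24 and 72 h with dTAG in the FOXO1-FKBP line, with an edgeR adjusted p of 0.164 for the trend in the first of these lines. The 16 chains without a call in the PAX3-FOXO1-FKBP line had log2 changes from -0.72 to 0.81, and 10 of them stood above DMSO at 72 h. COL19A1 had 24.6 CPM under DMSO, then 19.5, 18.8, 29.1 and 43.1 CPM after 2, 6, 24 and 72 h with dTAG there, and 12.5 CPM under DMSO, then 11.6, 9.69, 12.9 and 8.28 CPM after 2, 6, 24 and 72 h with dTAG in the FOXO1-FKBP line. In the FOXO1-FKBP line 22 of 25 chains were above DMSO at 24 h, beside 49.2% of 11982 genes, and 17 of 25 below it at 72 h, beside 50.9%. The part of transcript composition in these counts was not tested. The log2 change of all genes rose with GC content there (Spearman's rho 0.39 at 24 h and 0.50 at 72 h). It also varied with length (rho 0.31 and -0.51). With correction for both, the 24 h changes ran from -0.52 for COL13A1 to 0.29 for COL9A2. COL4A1 and COL5A1 were then at 0.0087 and 0.011, and COL3A1 was at -0.27. As given above, no chain had a trend call in the FOXO1-FKBP line over all 5 columns and 9 had one without the 24 h column.

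No other chain that differed between clones and parental cells had a trend call in either line, and those of low counts were not tested there. COL5A1, the regulator of fibril diameter, had 431 CPM under DMSO, then 423, 466, 539 and 430.2 CPM after 2, 6, 24 and 72 h with dTAG in the PAX3-FOXO1-FKBP line, and 118 CPM under DMSO, then 117, 108, 144 and 101 CPM after 2, 6, 24 and 72 h with dTAG in the FOXO1-FKBP line. COL5A2, its partner, had 565 CPM under DMSO, then 571, 508, 498 and 445 CPM after 2, 6, 24 and 72 h with dTAG in the PAX3-FOXO1-FKBP line, and 378 CPM under DMSO, then 387, 318, 398 and 269.9 CPM after 2, 6, 24 and 72 h with dTAG in the FOXO1-FKBP line. The 2 type V chains were both higher in the PAX3-FOXO1-FKBP line than in the FOXO1-FKBP line in every column, on tables scaled separately. COL24A1 had 18.1 CPM under DMSO, then 15.4, 17.96, 24.4 and 17.8 CPM after 2, 6, 24 and 72 h with dTAG in the PAX3-FOXO1-FKBP line, and 16.4 CPM under DMSO, then 17.2, 12.6, 16.9 and 12.4 CPM after 2, 6, 24 and 72 h with dTAG in the FOXO1-FKBP line. COL6A1, the type VI chain, had 107 CPM under DMSO, then 100.4, 104, 106 and 85.1 CPM after 2, 6, 24 and 72 h with dTAG in the PAX3-FOXO1-FKBP line, and 25.6 CPM under DMSO, then 26.2, 24.2, 32.1 and 23.05 CPM after 2, 6, 24 and 72 h with dTAG in the FOXO1-FKBP line. COL6A1 was lowest at 72 h in both lines. COL7A1, the anchoring fibril chain, had 7.26 CPM under DMSO, then 7.36, 7.78, 7.74 and 8.42 CPM after 2, 6, 24 and 72 h with dTAG in the PAX3-FOXO1-FKBP line, and 5.87 CPM under DMSO, then 7.11, 6.17, 8.77 and 8.26 CPM after 2, 6, 24 and 72 h with dTAG in the FOXO1-FKBP line. COL8A2, the short-chain network member, had 1.26 CPM under DMSO, then 1.98, 2.25, 1.43 and 1.86 CPM after 2, 6, 24 and 72 h with dTAG in the PAX3-FOXO1-FKBP line, and 0.596 CPM under DMSO, then 0.847, 0.591, 0.816 and 0.701 CPM after 2, 6, 24 and 72 h with dTAG in the FOXO1-FKBP line. Both were low.

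Of the fibril-associated chains, COL12A1 had 293 CPM under DMSO, then 246, 275, 412 and 431 CPM after 2, 6, 24 and 72 h with dTAG in the PAX3-FOXO1-FKBP line, and 237 CPM under DMSO, then 243, 206, 278 and 179 CPM after 2, 6, 24 and 72 h with dTAG in the FOXO1-FKBP line. COL14A1, its relative, had 146 CPM under DMSO, then 138, 127, 166 and 159 CPM after 2, 6, 24 and 72 h with dTAG in the PAX3-FOXO1-FKBP line, and 156 CPM under DMSO, then 156, 139, 186 and 123 CPM after 2, 6, 24 and 72 h with dTAG in the FOXO1-FKBP line. COL12A1 was highest at 72 h in the PAX3-FOXO1-FKBP line and lowest at 72 h in the FOXO1-FKBP line, while the difference in slope did not pass (edgeR adjusted p = 0.295). COL9A1, a type IX chain, had 0.893 CPM under DMSO, then 1.16, 0.679, 0.671 and 1.16 CPM after 2, 6, 24 and 72 h with dTAG in the PAX3-FOXO1-FKBP line, and 2.104 CPM under DMSO, then 2.47, 2.42, 2.29 and 2.33 CPM after 2, 6, 24 and 72 h with dTAG in the FOXO1-FKBP line. COL9A3, another, had 0.764 CPM under DMSO, then 1.12, 1.63, 1.29 and 1.43 CPM after 2, 6, 24 and 72 h with dTAG in the PAX3-FOXO1-FKBP line, and 2.71 CPM under DMSO, then 2.87, 2.47, 3.51 and 4.98 CPM after 2, 6, 24 and 72 h with dTAG in the FOXO1-FKBP line. Both type IX chains stayed under 5 CPM in each column. COL21A1, a fibril-associated chain, had 3.99 CPM under DMSO, then 4.12, 3.24, 3.16 and 4.23 CPM after 2, 6, 24 and 72 h with dTAG in the PAX3-FOXO1-FKBP line, and 4.16 CPM under DMSO, then 4.13, 4.17, 3.596 and 2.81 CPM after 2, 6, 24 and 72 h with dTAG in the FOXO1-FKBP line. COL15A1, the multiplexin, had 19.7 CPM under DMSO, then 16.1, 20.2, 34.7 and 23.1 CPM after 2, 6, 24 and 72 h with dTAG in the PAX3-FOXO1-FKBP line, and 16.8 CPM under DMSO, then 16.2, 14.8, 18.8 and 11.6 CPM after 2, 6, 24 and 72 h with dTAG in the FOXO1-FKBP line. COL18A1, the endostatin source, had 132 CPM under DMSO, then 121, 129, 156 and 173 CPM after 2, 6, 24 and 72 h with dTAG in the PAX3-FOXO1-FKBP line, and 55.2 CPM under DMSO, then 57.7, 55.1, 69.02 and 55.3 CPM after 2, 6, 24 and 72 h with dTAG in the FOXO1-FKBP line. The 2 multiplexins were each highest at 24 or 72 h in the PAX3-FOXO1-FKBP line. COL13A1, a transmembrane chain, had 1.398 CPM under DMSO, then 2.02, 1.67, 1.21 and 1.77 CPM after 2, 6, 24 and 72 h with dTAG in the PAX3-FOXO1-FKBP line, and 2.44 CPM under DMSO, then 2.43, 2.305, 1.84 and 2.33 CPM after 2, 6, 24 and 72 h with dTAG in the FOXO1-FKBP line. COL25A1, the other transmembrane chain, had 22.6 CPM under DMSO, then 17.5, 16.1, 19.5 and 14.7 CPM after 2, 6, 24 and 72 h with dTAG in the PAX3-FOXO1-FKBP line, and 16.4 CPM under DMSO, then 17.7, 12.4, 19.97 and 10.4 CPM after 2, 6, 24 and 72 h with dTAG in the FOXO1-FKBP line. COL25A1 was lowest at 72 h in both lines.

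Transcript length moved with the time columns. Transcripts of the described collagens are long, with a median of 6425 nt beside 3419 nt for genes in general. With tagged FOXO1 the log2 change of all genes correlated with length at Spearman's rho of -0.035, -0.37, 0.31 and -0.51 at 2, 6, 24 and 72 h, and in the PAX3-FOXO1-FKBP line at -0.31, -0.25, -0.01 and -0.29. With correction for GC content and length the 72 h log2 changes in the PAX3-FOXO1-FKBP line were 2.60 for COL1A1, 1.41 for COL11A2, 1.20 for COL16A1, -1.93 for COL27A1, -1.08 for COL4A1 and -1.12 for COL4A2, and all 6 trends passed.

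As a share of collagen mRNA per kb, type IV chains held 29.8% under DMSO, then 27.5, 25.6, 19.4 and 14.002% after 2, 6, 24 and 72 h with dTAG in the PAX3-FOXO1-FKBP line. In the FOXO1-FKBP line they held 35.9% under DMSO, then 35.4, 35.3, 37.2 and 34.7% after 2, 6, 24 and 72 h with dTAG. Fibrillar chains held 51.6% under DMSO, then 54.7, 55.7, 56.6 and 60.99% after 2, 6, 24 and 72 h with dTAG in the PAX3-FOXO1-FKBP line, and 46.8% under DMSO, then 46.5, 47.1, 45.2 and 47.3% after 2, 6, 24 and 72 h with dTAG in the FOXO1-FKBP line. Per kb, COL4A2 was the highest collagen of the PAX3-FOXO1-FKBP line in DMSO, at 120 CPM per kb, with COL3A1 next at 112. COL3A1 was highest at 2, 6, 24 and 72 h, at 125, 125, 121 and 159 CPM per kb, and COL4A2 was at 48.8 at 72 h, below COL3A1, COL5A2 and COL5A1. These shares have no replicate error.

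**Figure D4:**
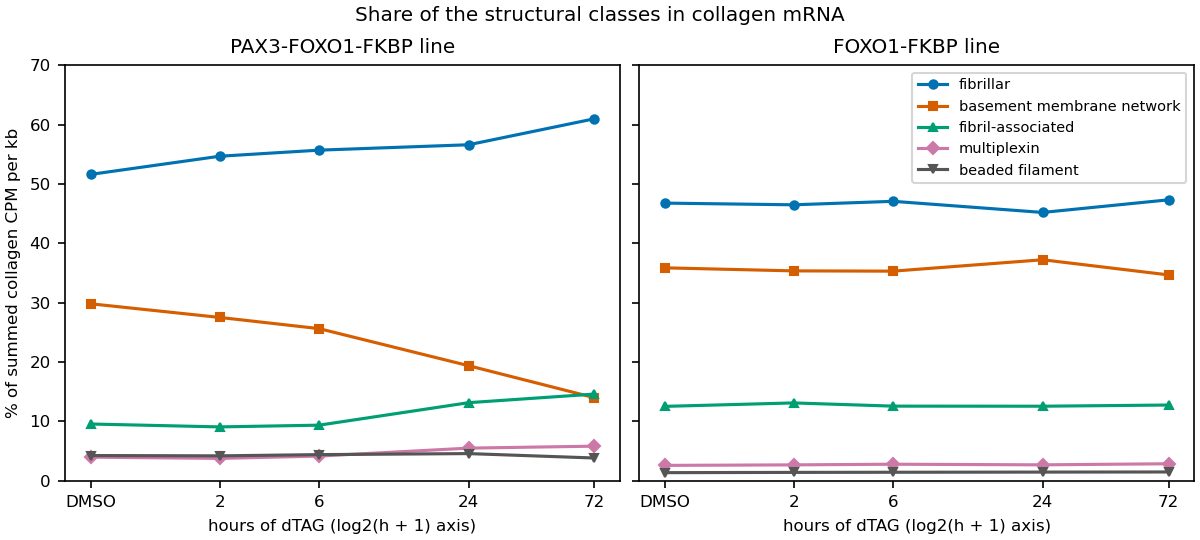
Share of the summed collagen CPM per kb held by 5 structural classes, in % on an axis from 0, in DMSO and at 2, 6, 24 and 72 h of dTAG, for the PAX3-FOXO1-FKBP line (left) and the FOXO1-FKBP line (right), 1 pooled column per point. Type IV chains of the basement membrane network stand at 29.8% under DMSO and are lower at each later time in the PAX3-FOXO1-FKBP line and stay between 34.7 and 37.2% in the FOXO1-FKBP line.

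Among genes that handle collagen, 0 of 17 modification and folding genes tested had a trend in the PAX3-FOXO1-FKBP line by edgeR. Of all 12331 genes tested there, 4.57% had one (2.4% rose, 2.17% fell), and the counts of the 5 lists are to be read against these shares. Of 16 genes of export, cleavage and cross-linking, 2 fell and 0 rose. TLL2, a protease of the tolloid family, had 43.1 CPM under DMSO, then 38.2, 29.8, 12.6 and 14.1 CPM after 2, 6, 24 and 72 h with dTAG (slope -0.31 ± 0.049, edgeR adjusted p = 0.0141). Its slope also differed from that in the FOXO1-FKBP line (-0.32 ± 0.059, edgeR adjusted p = 0.0238). ADAMTS3, which removes amino-terminal propeptides, had 11.9 CPM under DMSO, then 10.9, 9.21, 7.58 and 4.45 CPM after 2, 6, 24 and 72 h with dTAG (slope -0.21 ± 0.039, edgeR adjusted p = 0.0259). The matrix protease MMP16 was the 1 of 7 proteases and inhibitors tested that changed, with 10.7 CPM under DMSO, then 5.83, 3.57, 3.25 and 2.41 CPM after 2, 6, 24 and 72 h with dTAG (slope -0.34 ± 0.05, edgeR adjusted p = 0.0115). Of 6 proteoglycans and glycoproteins, FN1, fibronectin, fell (slope -0.17 ± 0.03, edgeR adjusted p = 0.0233) and THBS1, thrombospondin 1, rose (slope 0.13 ± 0.028, edgeR adjusted p = 0.0401). None of 6 collagen receptors tested passed, MRC2 (slope 0.13 ± 0.035, edgeR adjusted p = 0.0958) and ITGA11 (slope 0.075 ± 0.033, edgeR adjusted p = 0.307) being those of lowest p. LEPREL1 (slope -0.14 ± 0.033, edgeR adjusted p = 0.06596) and P4HA2 (slope 0.15 ± 0.043, edgeR adjusted p = 0.106) were those of lowest p among modification and folding genes. With tagged FOXO1 no gene of the 5 lists had a trend, and neither did any of the 11982 genes tested there.

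Other markers that moved over the PAX3-FOXO1-FKBP columns included MYOG, DES and MYH3 of the myogenic list, which rose (edgeR adjusted p = 0.00221, 0.00746 and 0.00957), PDGFRB of the fibroblast list, which rose (edgeR adjusted p = 0.024), and PDGFRA of that list and the cartilage factor SOX9, which fell (edgeR adjusted p = 0.0132 and 0.0362). The 1 endothelial marker tested also fell, as did 1 of 3 pan-leukocyte markers tested. None of 3 epithelial and 3 B lineage markers tested had a trend call. Of all 12331 genes tested in that line, 4.57% had one. MYOG, the myogenic factor myogenin, had 332 CPM under DMSO, then 486, 702, 1025 and 1190.2 CPM after 2, 6, 24 and 72 h with dTAG. SOX9 had 146 CPM under DMSO, then 118, 105, 94.5 and 89.3 CPM after 2, 6, 24 and 72 h with dTAG. Summed fibroblast markers were 63.95 CPM under DMSO, then 63.9, 68.1, 49.9 and 67.6 CPM after 2, 6, 24 and 72 h with dTAG. At 2 h the summed B lineage markers stood at 52.6 CPM, against 0.851 to 3.01 CPM in the other columns of that line, and all 6 collagen trends passed without the 2 h columns. The difference in trend between the lines, called for COL1A1 and COL27A1, was lost for both without the 2 h columns, as it was without the 6 h columns. The part of the other markers in the collagen trends was not tested.

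The collagen level of a tagged line in DMSO resembled some clones more than others. Over the 29 chains, on log2 of CPM plus 1, Pearson's r of the PAX3-FOXO1-FKBP line in DMSO was 0.98 with clone 10, 0.95 with clone 11, 0.92 with parental cells and 0.88 each with clones 4 and 12. COL3A1 stood at 623 CPM in that line and at 958 and 993 CPM in clone 10. Some chains lay apart from clone 10, such as COL1A1, at 9.91 CPM in that line and 55.9 and 55.9 CPM in clone 10, and COL2A1, at 266 CPM in that line and 752 and 649 CPM in clone 10. The r of the FOXO1-FKBP line in DMSO was 0.96 with clone 10, 0.96 with clone 11 and 0.92 with parental cells. These values come from tables that were scaled separately, and the points share the order of gene levels common to all Rh30 libraries.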

How the data were processed

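RNA-sequencing tables of Rh30 cells were used as deposited. For the clones and parental cells the authors deposited unnormalised counts, with a column for each of 10 libraries. The tables of the time course hold estimated counts deposited by the authors, 1 column per condition per the file headers (10 columns), so its replicates were pooled by the authors. Per the submitters' processing notes, Cuffdiff 2.1.1, Bowtie2 and Trimmomatic 0.32 were used with hg19. The sources used here do not give their roles, the annotation, strand handling or any scaling of the pooled columns, so reads of a chain and of an overlapping antisense gene such as COL18A1-AS1 cannot be told apart. Of 30 samples, the 20 of the time course are used as pooled columns.

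Clone counts were tested in edgeR 4.0.16 (R 4.3.3) by quasi-likelihood F tests over all 10 libraries, with TMM scaling, the filterByExpr filter at a minimum count of 10, 5 residual degrees of freedom and Benjamini-Hochberg adjustment over all genes, at a threshold of 0.05. Errors of log2 changes and slopes are standard errors from that fit. Time-course log2 changes used a prior count of 2, genes needed a mean normalised count of at least 50, and genes with an exact 0 in 1 column and at least 10 counts in another were left out as possible failed estimates. Because the columns were pooled, at least 2-fold took the place of a test at each time. Trends were edgeR slopes on rounded counts, with 3 residual degrees of freedom per line and 6 for the difference between lines. GC content and length came from the longest protein-coding transcript in GENCODE 29, or the longest of any kind where a gene had none, found for 21570 symbols and all 43 collagens, and corrections used smooth fits (mgcv 1.9.3). DESeq2 1.42.0 was an alternative. The clone, trend and difference fits were tested on simulated data. Promoters are RefSeq's.

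All members with at least 10 counts in any column are described. Values in each column are given for members called in a comparison and for the 3 highest per kb, and up to 4 called genes of each list were named. The members and lists were chosen with earlier results of these data known. Counts of library totals limit the precision, and bounds cover counting error only. The alternatives were other scalings, tools, filters and prior counts, the correction above, and leaving out single libraries or times.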

Additional observations from a re-analysis of the deposited data

Results flagged for a closer look

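COL1A1 and COL27A1 had different slopes in the PAX3-FOXO1-FKBP and FOXO1-FKBP lines by the test of the difference itself. The slope in the PAX3-FOXO1-FKBP line minus that in the FOXO1-FKBP line, per unit of log2 of hours plus 1, was 0.41 for COL1A1 (edgeR adjusted p = 0.0266), since its level rose in the PAX3-FOXO1-FKBP line and had no trend call in the FOXO1-FKBP line. For COL27A1 it was -0.33 (edgeR adjusted p = 0.0226), since its level fell in the PAX3-FOXO1-FKBP line and had no trend call in the FOXO1-FKBP line. Both calls were lost without the 2 h or without the 6 h columns, and that of COL1A1 also without the 72 h columns.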

How the results depend on the processing

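The count of chains called against parental cells was 14, 17, 14 and 11 for clones 4, 10, 11 and 12, and 13 to 20, 11 to 18, 11 to 16 and 7 to 13 with 1 library left out. For clone 10 it was 11 without parental replicate 1 or 2, and for clone 12 it was 7 without parental replicate 2 or 1 of the clone 12 libraries. Among the clones it was 25, and 23 to 26 with 1 library left out. A lone library was assumed to vary like the other groups. The counts with 1 library left out are given without the share of all genes called. With correction for GC content and length, COL18A1 and COL2A1 in clone 10 turned to -0.139 and -0.022. Of other clone values outside the left-out libraries, 309 kept direction and side of the threshold and 14 lost the call, and the cause was not tested.

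At 6 h in the PAX3-FOXO1-FKBP line the count past 2-fold was 0, and 1 (COL27A1) with library totals or a minimum mean of 10. With library totals COL16A1 fell short of 2-fold at 72 h. Trends numbered 6 there (563 of 12331 genes) and 1 without the 72 h columns (120 genes). In the FOXO1-FKBP line they numbered 0 (0 of 11982 genes) and 9 without the 24 h columns (1455 genes). The difference in trend was called for 2 chains, beside 247 of 11766 genes. It was called for 5 chains with DESeq2 and 5 with the correction, beside 525 and 365 genes. Without the 2 h or the 6 h columns it was called for 0 chains, beside 59 and 147 genes. Without the 24 h columns there were 6 chains and 635 genes, and without the 72 h columns 1 chain and 48 genes.

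With replicate number as a block over parental cells and clones 4, 10 and 11, the counts were 16, 17 and 15, and 22 among those 3 clones. Of all genes, 50.1, 54.8 and 54.7% were then called, and 57.9% among those clones. The same libraries without the block, a fit chosen after seeing the data, gave 14, 15 and 15, and 20 among clones. Each of these calls was also made under the block. Without the block 44.6, 49.3 and 49.7% of all genes were called, and 49.8% among clones. Deviations by replicate number correlated at 0.147 to 0.364 between clones 4, 10 and 11 and at 0.00869 to 0.0237 between parental cells and these clones, so the numbers went together among the clones but not with parental cells. The fit without the block does not take that shared deviation into account. No paired analysis was possible for the time course because its replicates were pooled. Depth limits the chains under about 10 counts, and pooled columns carry no replicate error.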

Other observations

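COL22A1, a chain of the junction of muscle and tendon, and COL6A6 passed no filter on low counts. COL22A1 had at most 10.4 estimated counts in any column. COL6A6 had 30 and 6 counts in the libraries of clone 4, against 2 and 5 counts in parental cells. In the PAX3-FOXO1-FKBP line COL6A6 had 20.3 estimated counts under DMSO, then 6.62, 0.916, 2.12 and 0 after 2, 6, 24 and 72 h with dTAG. COL1A2 had 12.4 estimated counts under DMSO, then 12.6, 2.21, 4.58 and 7.87 in that line, below the mean of 50 needed for a test.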
